A study of Mus musculus with 9 samples.

Results

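The lambda light-chain genes were followed in RNA from mouse splenic plasma cells. Of the 46958 genes in the deposited count table, 7 make up the group by their symbols, namely the constant-region genes Iglc1, Iglc2, Iglc3 and Iglc4 and the variable segments Iglv1, Iglv2 and Iglv3. The libraries came from CD138+ cells isolated with magnetic beads from the spleens of 3-month-old mice that were not immunized, a fraction that was enriched but not fully pure. Each of the 9 libraries held the cells of 1 spleen, with 3 mice in each of 3 genotypes: WT, DH-LMP2A and kFRA, the last also labelled LCDD for light chain deposition disease. All 9 mice were of a mixed C57/BL6x129/SVxBALB/c background, and the labels describe the alleles no further. As background from the literature on these alleles, DH-LMP2A mice express LMP2A, a signalling protein of the Epstein-Barr virus, from a heavy-chain locus that can no longer be rearranged, and kFRA is a knock-in of the variable gene of a patient's kappa chain at the mouse kappa locus, where it is joined to the mouse constant region. The labels do not say whether the kFRA mice also carried the DH-LMP2A allele. Ighm, the IgM heavy-chain constant gene, ranged over 9365 to 10028 CPM in DH-LMP2A, 6981 to 10469 CPM in kFRA and 154254 to 184338 CPM in WT. CPM is the number of counts per 1000000 counts of the library after scaling between libraries.

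An antibody pairs heavy chains with a light chain of the kappa or the lambda type. In the mouse most light chains are kappa. Lambda genes are usually rearranged after the kappa genes have failed to give a usable chain or when a self-reactive receptor is replaced, a process called receptor editing. Each lambda chain is made by joining a variable segment to a short J segment, which is spliced to the constant region behind it. Plasma cells transcribe the chosen light chain at very high levels.

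The 7 genes lie on the minus strand of chromosome 16 between 19061618 and 19260859 (GRCm38, the coordinates of the table, identical to those of GENCODE M21 for 7 of 7). In the direction of transcription the order is Iglv2, Iglv3, Iglj2 with Iglc2, Iglj4 with Iglc4, then Iglv1, Iglj3 with Iglc3, and Iglj1 with Iglc1, so that the locus forms an upstream cluster around Iglc2 and a downstream cluster around Iglc1 and Iglc3. RefSeq lists Iglc4 and Iglj4 as pseudogenes. The sequences below show how far the genes can be told apart by short reads. They are the GRCm38 reference, from GENCODE M21 transcripts, not the alleles of these mice. The first 300 bases of the coding part of each constant region are given 5′ to 3′, with Iglc1 (chr16:19061772-19062071) in lower case. In Iglc3 (chr16:19065382-19065681) minus strand like the rest, capitals mark bases that differ from Iglc1 in a pairwise alignment, and in Iglc2 (chr16:19198553-19198852) capitals mark bases that differ from Iglc3.
Iglc1: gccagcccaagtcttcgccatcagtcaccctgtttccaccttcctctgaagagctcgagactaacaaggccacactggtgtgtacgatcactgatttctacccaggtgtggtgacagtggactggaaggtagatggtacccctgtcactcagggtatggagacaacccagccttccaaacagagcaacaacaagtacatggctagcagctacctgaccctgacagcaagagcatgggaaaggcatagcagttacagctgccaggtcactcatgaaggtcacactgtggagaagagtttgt
Iglc3: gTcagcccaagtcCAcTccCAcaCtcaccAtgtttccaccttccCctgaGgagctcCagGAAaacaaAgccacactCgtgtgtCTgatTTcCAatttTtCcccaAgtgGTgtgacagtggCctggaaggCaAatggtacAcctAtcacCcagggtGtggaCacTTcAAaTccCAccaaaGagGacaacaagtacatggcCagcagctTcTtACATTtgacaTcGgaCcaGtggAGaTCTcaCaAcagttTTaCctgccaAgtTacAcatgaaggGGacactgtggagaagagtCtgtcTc
Iglc2: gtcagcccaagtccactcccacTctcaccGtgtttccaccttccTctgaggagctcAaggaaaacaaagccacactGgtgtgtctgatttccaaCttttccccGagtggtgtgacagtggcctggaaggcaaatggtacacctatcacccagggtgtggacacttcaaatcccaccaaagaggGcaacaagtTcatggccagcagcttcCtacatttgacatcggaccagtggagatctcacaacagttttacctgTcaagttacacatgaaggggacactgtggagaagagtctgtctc
Iglc2 and Iglc3 were 96.5% identical, with 11 substitutions, all in the stretch shown, and a longest shared run of 79 bases, whereas Iglc1 and Iglc3 were 74.1% identical with a longest shared run of 17 bases. Iglc4 was 85.0% identical to Iglc1. Of the 75-base windows of the annotated transcripts, 0 of 380 in Iglc1, 0 of 240 in Iglc4, 5 of 384 in Iglc2 and 27 of 378 in Iglc3 also occurred in the transcript of another gene. In Iglc3 these genes were Iglc2 and 2010309G21Rik, an antisense transcript with an exon of 93 bases inside Iglc3 (chr16:19065561-19065653, plus strand). The strand setting of the counting is not given in the sources used here, so the Iglc3 values are uncertain, and the antisense gene itself had 124 to 552 counts per library.

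The main exons of the variable segments, of which the first 300 bases are shown, were closer still. Iglv1 (chr16:19085022-19085321) and Iglv2 (chr16:19260406-19260705) were 97.0% identical, with 9 substitutions that capitals mark in Iglv2.
Iglv1: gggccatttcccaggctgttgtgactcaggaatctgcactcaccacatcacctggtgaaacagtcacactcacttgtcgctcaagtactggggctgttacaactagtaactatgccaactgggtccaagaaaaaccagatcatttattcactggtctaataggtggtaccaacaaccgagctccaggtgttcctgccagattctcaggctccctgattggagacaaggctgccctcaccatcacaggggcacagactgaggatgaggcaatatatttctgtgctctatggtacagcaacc
Iglv2: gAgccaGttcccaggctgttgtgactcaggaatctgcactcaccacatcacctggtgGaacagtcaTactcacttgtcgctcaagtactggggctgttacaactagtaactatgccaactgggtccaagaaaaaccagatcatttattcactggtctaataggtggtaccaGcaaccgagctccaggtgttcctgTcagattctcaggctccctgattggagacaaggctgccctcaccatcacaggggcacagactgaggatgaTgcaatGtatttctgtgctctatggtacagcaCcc
Of the 75-base windows, 30 of 317 in Iglv1 and 30 of 292 in Iglv2 occurred in both segments. Iglv3 shared 0 of 307 windows with any other transcript and was 52.3% identical to Iglv1. How reads that match both were counted is not given in the sources used here, and Iglv2, the lower of the pair, is therefore the less certain. The joining segments Iglj1 (chr16:19063225-19063262), Iglj3 (chr16:19067041-19067078) and Iglj2 (chr16:19200198-19200235) are short, and capitals mark bases that differ from Iglj1.
Iglj1: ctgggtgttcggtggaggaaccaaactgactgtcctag
Iglj3: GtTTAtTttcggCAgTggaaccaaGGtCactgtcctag
Iglj2: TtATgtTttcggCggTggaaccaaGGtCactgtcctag
Iglj2 and Iglj3 were 89.5% identical, while Iglj1 and Iglj3 were 71.1% identical. Iglj2 lies within an exon of 154 bases that the table also assigns to Iglc2 (chr16:19200198-19200351), and it had 0 counts in all 9 libraries. How reads that overlap both genes were counted is not given, so this 0 cannot be read as absence of Iglj2 from the RNA.

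The libraries held between 15449026 and 21558128 counts in all. A floor of 3 counts was worth 0.127 to 0.205 CPM, far below the level of each lambda gene. The markers of plasma cells summed to 34147 to 47159.5 CPM in DH-LMP2A, 20401 to 32064 CPM in kFRA and 18889.9 to 24141 CPM in WT over 8 genes. Those of B cells, which also transcribe light chains, summed to 699.6 to 1109.6 CPM, 489.3 to 623.6 CPM and 626.7 to 890.7 CPM over 8 genes. None of the plasma cell and B cell markers was at 0 in any library. The 5 pre-B cell markers together did not exceed 1.17 CPM in any library. The 8 erythroid markers summed to 2566 to 13641 CPM in DH-LMP2A, 1167 to 2807 CPM in kFRA and 39.3 to 341.4 CPM in WT, and the 8 T cell markers to 75.9 to 123.2, 44.5 to 64.5 and 45.2 to 98.3 CPM. In bulk RNA, fewer cells of a type and less RNA per cell cannot be told apart.

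Iglc1, the constant region of the most used lambda chain of the mouse, was high in DH-LMP2A, intermediate in kFRA and low in WT. Its levels were 21141, 19707 and 23793 CPM in DH-LMP2A replicates 1, 2 and 3. In kFRA they were 12355, 7179.6 and 13282 CPM, and in WT 2580.0, 3075 and 2469.8 CPM. The 3 genotypes did not overlap, and kFRA replicate 2 lay below the other kFRA libraries. The plasma cell markers also had their highest sums in DH-LMP2A (34147 CPM or more, against at most 24141 CPM in WT), but the 8 genes did not move as one. Against WT 3 of 8 were higher in DH-LMP2A (Mzb1, Prdm1 and Slamf7), Tnfrsf17 was lower (log2 fold change −1.16, edgeR adjusted p = 0.0159) and 4 did not pass. In kFRA 2 of 8 were higher than in WT (Mzb1 by 1.22 and Slamf7 by 0.64), Tnfrsf17 was lower (−1.69) and 5 did not pass. Between kFRA and DH-LMP2A edgeR called 0 of 8 (2 lower at an unadjusted p under 0.05, and 0 by DESeq2). Over all tested genes 1.73% were called higher and 3.3% lower there, so a count of 0 of 8 is close to those shares. Of the 8 erythroid markers 5 were higher in each of DH-LMP2A and kFRA compared with WT, and edgeR called 0 between kFRA and DH-LMP2A (1 lower at an unadjusted p under 0.05, and 0 by DESeq2). Against WT the shares of all tested genes were 5.07% higher and 7.3% lower in DH-LMP2A, and 6.68% and 11.1% in kFRA. DH-LMP2A replicates 1 and 2, with erythroid sums of 2566 and 2674 CPM, lay below the highest kFRA library (2807 CPM). The part of these markers in the lambda levels was not tested.

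Iglv1, the variable segment of the downstream cluster, showed the same order of genotypes. Its DH-LMP2A levels were 17619, 16512 and 19252 CPM. In kFRA it was at 8219, 6215 and 7146 CPM, and in WT at 2539, 3646 and 2647 CPM. Again no library of one genotype fell in the range of another. Within DH-LMP2A the highest library was 1.17 times the lowest, against 1.32 times in kFRA and 1.44 times in WT.

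Iglc2 and Iglc3, the constant regions with the nearly identical sequences shown above, differed much less. Iglc2 was at 784.9, 751.3 and 1182 CPM in DH-LMP2A, 1480.0, 944.5 and 1103 CPM in kFRA, and 1813, 1212 and 2119 CPM in WT. In CPM the 3 WT libraries lay just above the 3 DH-LMP2A libraries, and kFRA overlapped both. As a share of all counts WT replicate 2 (0.110%) lay below DH-LMP2A replicate 3 (0.124%), so that this separation depended on the scaling. Iglc3 was at 1141, 973.9 and 1151 CPM in DH-LMP2A, 1263, 800.4 and 1637 CPM in kFRA, and 606.3, 1385 and 784.8 CPM in WT, so that all 3 genotypes overlapped. The WT replicate with the highest Iglc3 was the one with the lowest Iglc2.

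Iglc4, listed as a pseudogene, had 39 to 186 counts per library. Its levels were 2.45, 3.29 and 8.51 CPM in DH-LMP2A, 7.80, 3.62 and 7.65 CPM in kFRA, and 1.98, 3.01 and 2.93 CPM in WT. The 3 kFRA libraries lay above the 3 WT libraries, and DH-LMP2A overlapped both.

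The variable segments of the upstream cluster, Iglv2 and Iglv3, were highest in WT and spread widely there. Iglv2 was at 608.2, 310.5 and 1240.1 CPM in the WT replicates, 236.0, 235.4 and 220.3 CPM in DH-LMP2A and 142.2, 192.2 and 219.98 CPM in kFRA. The highest WT library was 3.99 times the lowest, against 1.07 times in DH-LMP2A. Iglv3 was at 723.8, 243.3 and 167.8 CPM in WT, 165.3, 123.2 and 153.99 CPM in DH-LMP2A and 84.3, 84.9 and 74.3 CPM in kFRA. WT replicate 1 had the most Iglv3 and WT replicate 3 the most Iglv2. In CPM the 3 genotypes did not overlap for either segment, but the margins were narrow between WT and DH-LMP2A for Iglv3 and between DH-LMP2A and kFRA for Iglv2. Both closed when the values were taken as shares of all counts. Iglv3 in WT replicate 3 (0.0131%) then lay below the DH-LMP2A libraries (0.0144% to 0.0189%), and Iglv2 in kFRA replicate 2 (0.0235%) lay above DH-LMP2A replicate 3 (0.0232%).

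**Figure D1:**
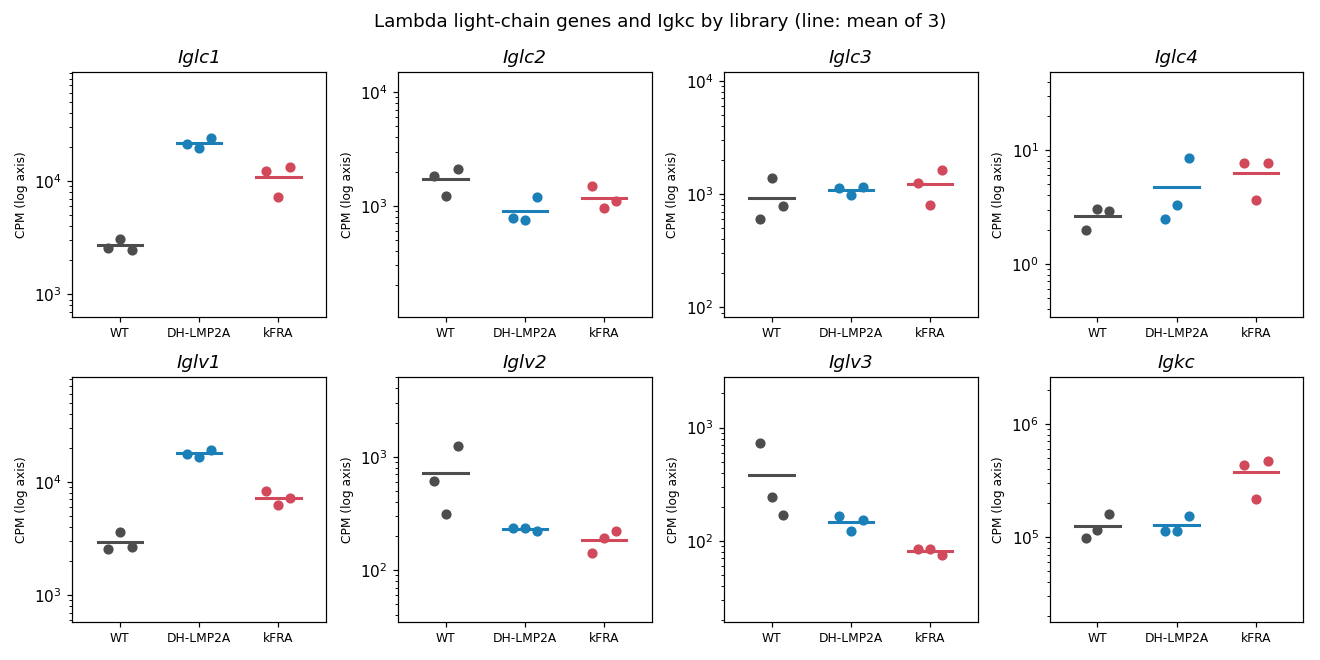
CPM of the 7 lambda genes and of Igkc in each library on log axes, each spanning the same fold range, with WT, DH-LMP2A and kFRA side by side, 1 point per library and a line at the mean of 3. Iglc1 and Iglv1 separate the 3 genotypes (means of 2708, 21547 and 10939 CPM for Iglc1 in WT, DH-LMP2A and kFRA), while Iglv2 and Iglv3 are highest and most scattered in WT.

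Against WT, the DH-LMP2A plasma cells had more RNA of Iglc1 and Iglv1, both of the downstream cluster. Iglc1 rose 7.96-fold, a log2 fold change of 2.99 ± 0.32 (SE), and Iglv1 rose 6.04-fold, or 2.60 ± 0.27. Their adjusted p-values from edgeR were 0.000401 and 0.00034. Iglv2 was lower, with a log2 fold change of −1.64 ± 0.42 (adjusted p from edgeR 0.0324). This count of 2 of 7 lambda genes higher and 1 of 7 lower stands against 5.07% of the 14199 tested genes called higher and 7.3% called lower. Iglc2 (−0.92, SE 0.28, edgeR adjusted p = 0.0675), Iglv3 (−1.36, SE 0.45, edgeR adjusted p = 0.0871), Iglc4 (0.85, SE 0.49, edgeR adjusted p = 0.312) and Iglc3 (0.23, SE 0.34, edgeR adjusted p = 0.739) did not pass. The median log2 fold change was 0.23 over the 7 lambda genes and −0.0081 over all tested genes.

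Of the 6 fits with 1 of these replicates omitted, 5 lost the Iglv2 call, and without WT replicate 3 its log2 fold change was −0.99 (edgeR adjusted p = 0.0633). Leaving out that library moved Iglv3 the other way, to −1.71 with an edgeR adjusted p of 0.0259, whereas without WT replicate 1 it was −0.48. Iglc1 and Iglv1 passed in 6 of 6 such fits. With scaling by library size alone 79.9% of the genes called in this comparison were higher, against 41.0% with the scaling used here. None of the 7 lambda genes changed direction with it, but Iglv2 no longer passed (−1.24, edgeR adjusted p = 0.0575).

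Against WT, the kFRA plasma cells had more RNA of Iglc1 and Iglv1 and less of the upstream segments Iglv2 and Iglv3. Iglc1 rose 4.04-fold, a log2 fold change of 2.01 ± 0.31 (SE), and Iglv1 rose 2.44-fold, or 1.29 ± 0.26. Their adjusted p-values from edgeR were 0.00259 and 0.0098. Iglv2 was lower by a log2 fold change of −1.96 ± 0.42 and Iglv3 by −2.22 ± 0.47, with adjusted p-values from edgeR of 0.0135 and 0.0122. Thus 2 of 7 lambda genes were higher and 2 of 7 lower, against 6.68% of all tested genes called higher and 11.1% called lower. Iglc4 (1.26, SE 0.49, edgeR adjusted p = 0.101), Iglc2 (−0.54, SE 0.28, edgeR adjusted p = 0.2) and Iglc3 (0.41, SE 0.34, edgeR adjusted p = 0.4) did not pass. The median was 0.41 over the lambda genes and −0.038 over all genes. In the same comparison 5 of 8 B cell markers were lower in kFRA, namely Cd22 (−3.60), Fcer2a (−3.32), Pax5 (−3.01), Blk (−1.42) and Cr2 (−1.32), with a list median of −1.37. Their part in the lower Iglv2 and Iglv3 was not tested.

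The call for Iglv2 was lost without kFRA replicate 1 (edgeR adjusted p = 0.0622), and Iglc4 passed without kFRA replicate 2 (log2 fold change 1.62, edgeR adjusted p = 0.0303). Without WT replicate 1 the Iglv3 log2 fold change was −1.34, and without WT replicate 3 that of Iglv2 was −1.31, both still past the threshold (edgeR adjusted p = 0.00402 and 0.0197). Under library size alone 72.0% of the called genes were higher in kFRA, against 37.6%, the 4 lambda calls kept their directions, and Iglc4 passed as well (1.42, edgeR adjusted p = 0.0432). The comparisons of DH-LMP2A and of kFRA with WT share the WT libraries.

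Between kFRA and DH-LMP2A, Iglv1 was the 1 lambda gene of 7 that passed. Its level was 2.47-fold lower in kFRA, a log2 fold change of −1.31 ± 0.26 (SE, adjusted p from edgeR 0.0208). Over all tested genes 3.3% were called lower and 1.73% higher, the latter against 0 of 7 lambda genes in edgeR, also 0 at an unadjusted p under 0.05 and 0 in DESeq2. Iglc1 averaged 10939 ± 3288.5 CPM in the kFRA libraries and 21547 ± 2073 CPM in those of DH-LMP2A (SD, n = 3 each), without overlap. The log2 fold change was −0.98 ± 0.30 and missed the threshold (adjusted p from edgeR 0.103). It passed with scaling by library size alone (−1.16, adjusted p from edgeR 0.0169) and in the DESeq2 Wald test (adjusted p = 0.0028). Iglv3 (−0.86, SE 0.45), Iglv2 (−0.32, SE 0.41), Iglc4 (0.41, SE 0.47), Iglc2 (0.38, SE 0.28) and Iglc3 (0.18, SE 0.34) did not pass either, with edgeR adjusted p-values between 0.286 and 0.789. With library size alone the sign of Iglc3 turned (−0.0055), and 26.0% of the genes called were higher, against 34.4%. The median was −0.32 over the lambda genes and −0.0049 over all genes. With single replicates omitted Iglv1 passed in 1 of 6 fits, the one without kFRA replicate 2 (−1.15, edgeR adjusted p = 0.03), and in the other 5 its edgeR adjusted p was 0.0717 to 0.0987.

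**Figure D2:**
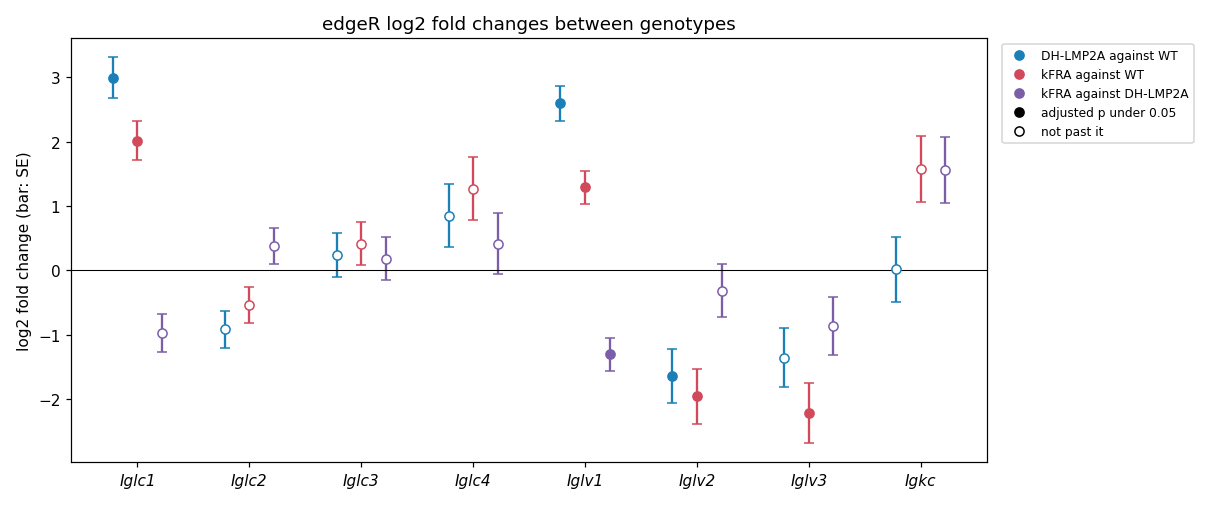
edgeR log2 fold changes of the 7 lambda genes and Igkc in the 3 comparisons, with bars of 1 SE, filled points for an adjusted p under 0.05 and open points otherwise. Iglc1 and Iglv1 lie above 0 against WT (2.99 and 2.60 for DH-LMP2A, 2.01 and 1.29 for kFRA) while Iglv2 and Iglv3 lie below 0.

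The lambda-to-kappa ratio was taken within each library as the summed counts of Iglc1 to Iglc4 over those of Igkc, the kappa constant-region gene, so that no scaling between libraries enters. DH-LMP2A had 20.5, 18.7 and 17.0 lambda counts per 100 Igkc counts. kFRA had 3.50, 4.13 and 3.39, and WT had 5.10, 4.87 and 3.32. The ratio in DH-LMP2A thus lay above both other genotypes in 3 of 3 libraries, while kFRA and WT overlapped.

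As a share of all light-chain constant-region counts, lambda made up 15.8% ± 1.21 in DH-LMP2A, 3.54% ± 0.372 in kFRA and 4.24% ± 0.889 in WT (SD, n = 3 each). The log2 ratio was 2.10 higher in DH-LMP2A than in WT, a 4.29-fold difference (exact permutation test, 2-sided, p = 0.1, adjusted over 12 tests 0.12). In kFRA it differed from DH-LMP2A by −2.35, a 5.11-fold lower ratio (exact permutation test, 2-sided, p = 0.1, adjusted 0.12). Between kFRA and WT the log2 difference of −0.25 was within the spread between replicates (exact permutation test, 2-sided, p = 0.4, adjusted 0.4). With 3 against 3 libraries 0.1 is the smallest p-value this test can give, so none of the 12 tests of ratios and shares can pass 0.05.

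The numerator and the denominator of the ratio moved differently in the genotypes. The lambda constant genes took 2.63% ± 0.125 of all counts in DH-LMP2A, 1.32% ± 0.197 in kFRA and 0.473% ± 0.0495 in WT (SD, n = 3 each). Igkc was at 431979, 216028 and 472266 CPM in kFRA, above the 112731, 114477 and 153369 CPM in DH-LMP2A and the 98077, 116659 and 161780 CPM in WT. Neither Igkc comparison of kFRA passed the threshold (log2 fold change 1.56, SE 0.52, edgeR adjusted p = 0.128 against DH-LMP2A, and 1.57, SE 0.52, edgeR adjusted p = 0.0643 against WT). Between DH-LMP2A and WT the Igkc CPM overlapped (0.02, SE 0.51, edgeR adjusted p = 0.99). As a share of all counts they did not, with 12.9%, 13.3% and 16.1% in DH-LMP2A against 9.47%, 10.6% and 12.6% in WT, and in kFRA Igkc took 40.9%, 26.4% and 42.2%. kFRA replicate 2, the lowest of its group in Iglc1, was also the lowest in Igkc, and its ratio was the highest of the 3 kFRA libraries.

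The sign of the difference between kFRA and WT depended on what was counted as lambda and as kappa. With Igkv and Igkj segments added to Igkc, the log2 difference was 0.50 rather than −0.25, and with all lambda segments over all kappa segments it was 0.34. The kFRA libraries had at most 896.0 counts in all Igkv segments together, against 1280440 to 1684850 in WT. All kappa counts in kFRA were thus nearly those of Igkc alone. By the background given above, the kFRA variable gene comes from a patient and is not among the mouse Igkv segments. The sums over all kappa therefore leave out part of the kFRA chain, and 0.50 and 0.34 do not compare like with like. With Iglc1 alone over Igkc the difference was 0.45. The differences between DH-LMP2A and the other genotypes kept their direction under these alternatives.

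**Figure D3:**
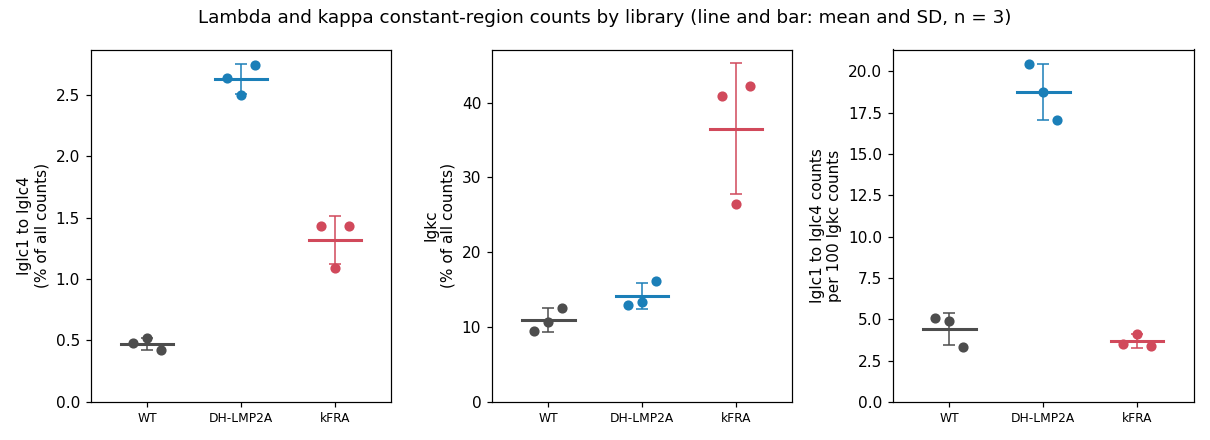
Share of all counts (percent) taken by Iglc1 to Iglc4 and by Igkc, and lambda constant counts per 100 Igkc counts, in each library, with the mean and SD of 3. The lambda share lies at 2.63% in DH-LMP2A, 1.32% in kFRA and 0.473% in WT, but the ratio to Igkc separates DH-LMP2A (17.0 to 20.5) from kFRA and WT (3.32 to 5.10).

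The use of the constant regions also differed between the genotypes. Iglc1 took 91.6%, 91.9% and 91.0% of the lambda constant-region counts in DH-LMP2A. It took 81.8%, 80.4% and 82.9% in kFRA and 51.6%, 54.2% and 45.9% in WT. The 3 genotypes did not overlap, with differences of 41.0 percentage points between DH-LMP2A and WT, 31.1 between kFRA and WT and −9.85 between kFRA and DH-LMP2A (exact permutation test, 2-sided, p = 0.1 each, adjusted 0.12). Iglc2 made up 3.81% ± 0.620 in DH-LMP2A, 9.09% ± 1.95 in kFRA and 32.3% ± 9.64 in WT (SD, n = 3 each). Iglc3 made up 4.63% ± 0.281, 9.18% ± 0.944 and 17.0% ± 6.50 in the same order. Iglc4 stayed at or below 0.0545% in each library.

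Within WT the minor constant regions varied between mice. Iglc2 took 36.2% and 39.4% in WT replicates 1 and 3 but 21.4% in replicate 2, where Iglc3 reached 24.4%. The sum of Iglc2 and Iglc3 does not depend on how reads were split between the nearly identical copies. It would still miss any reads left uncounted because they match both. Its log2 fold changes against WT were −0.40 (SE 0.23) in DH-LMP2A and −0.13 (SE 0.23) in kFRA. Between kFRA and DH-LMP2A the value was 0.27 (SE 0.23). None passed the threshold (edgeR adjusted p = 0.319, 0.707 and 0.512). The sum also pools genes of both clusters, which in DH-LMP2A against WT had log2 fold changes of −0.92 (Iglc2) and 0.23 (Iglc3). Iglc1 with Iglc4 gave 2.99 and 2.01 against WT and −0.98 between the other genotypes, close to Iglc1 alone.

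The variable segments were used in a similar way. Iglv1 took 97.8%, 97.9% and 98.1% of the lambda variable-segment counts in DH-LMP2A and 97.3%, 95.7% and 96.0% in kFRA. In WT it took 65.6%, 86.8% and 65.3%. WT lay below both other genotypes in 3 of 3 libraries, by 25.4 percentage points from DH-LMP2A and 23.8 from kFRA, and kFRA lay 1.55 points below DH-LMP2A (exact permutation test, 2-sided, p = 0.1 each, adjusted 0.12). WT replicate 1 had 18.7% Iglv3 and 15.7% Iglv2, WT replicate 3 had 30.6% Iglv2 and 4.14% Iglv3, and WT replicate 2 had 7.39% and 5.79%. These 3 mice thus differed in their minor variable segments by more than all DH-LMP2A and kFRA libraries, in which Iglv2 stayed at 1.12% to 2.96% and Iglv3 at 0.730% to 1.31%.

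**Figure D4:**
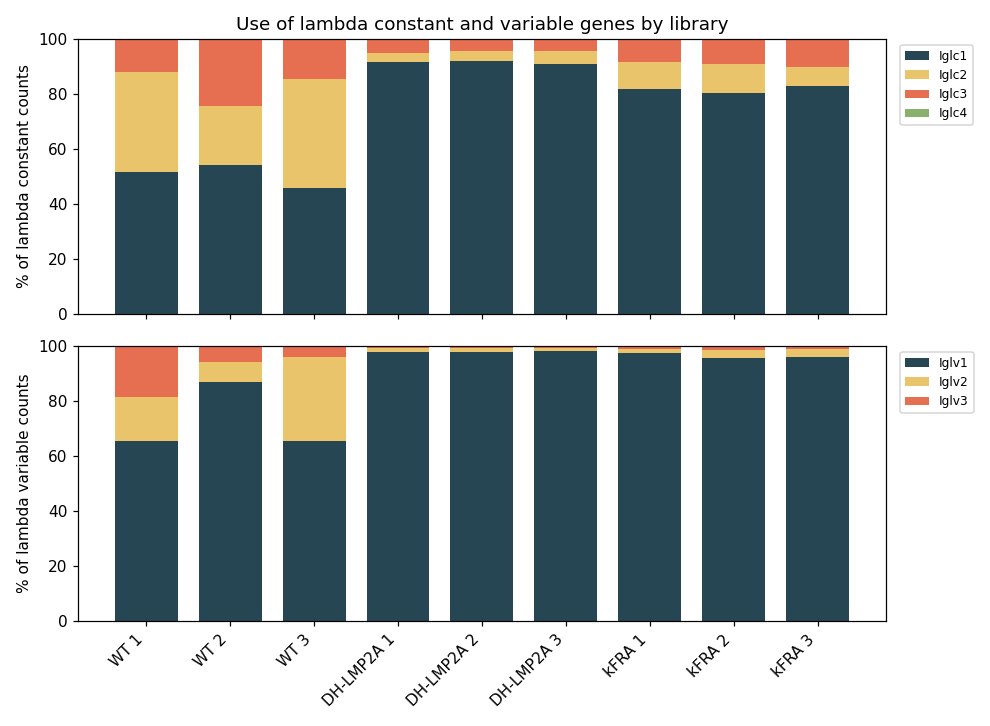
Percent of the lambda constant-region counts (top) and of the lambda variable-segment counts (bottom) that fell on each gene, 1 bar per library. Iglc1 takes 45.9% to 54.2% in WT, 80.4% to 82.9% in kFRA and 91.0% to 91.9% in DH-LMP2A, and the minor variable segments are visible mainly in WT.

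The joining segments, which lie on the same transcripts, gave a further reading of the constant-region use in the downstream cluster. Iglj1 had 9.51, 10.8 and 9.03 counts per Iglj3 count in DH-LMP2A, 4.29, 3.97 and 4.17 in kFRA and 1.79, 1.20 and 1.03 in WT. The 3 genotypes did not overlap. Iglc1 had 19.8 ± 1.13, 8.96 ± 0.834 and 3.21 ± 1.02 counts per Iglc3 count in the same order (SD, n = 3 each), again without overlap. Iglj1 stood at 14.0 ± 1.05, 12.5 ± 0.781 and 13.2 ± 0.626 counts per 1000 Iglc1 counts. Iglj3 stood at 28.5 ± 4.07, 27.2 ± 3.94 and 32.3 ± 9.27 counts per 1000 Iglc3 counts, with 32.2, 23.0 and 41.5 in the WT replicates. Within WT the orders therefore differed, since replicate 3 was lowest by the J segments and replicate 2 by the constant regions. The reads of a J segment and its constant region come in part from the same fragments, so the pair is not independent evidence.

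The ratio of variable-segment to constant-region counts was lower in kFRA. Over all lambda genes there were 78.1, 78.7 and 75.1 variable counts per 100 constant counts in DH-LMP2A, 77.4, 74.0 and 75.4 in WT, and 55.9, 72.7 and 46.4 in kFRA. The kFRA libraries lay below the others in 3 of 3 and were spread more widely. The log2 ratio in kFRA differed from DH-LMP2A by −0.43 and from WT by −0.40 (exact permutation test, 2-sided, p = 0.1 each, adjusted 0.12). DH-LMP2A and WT overlapped (log2 difference 0.03, exact permutation test, 2-sided, p = 0.3, adjusted 0.327). Without kFRA replicate 3 the differences were −0.28 and −0.25, and without kFRA replicate 2 they were −0.60 and −0.57.

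Taken by cluster, Iglv1 had 79.1, 79.8 and 77.2 counts per 100 counts of Iglc1 and Iglc3 in DH-LMP2A and 79.7, 81.7 and 81.3 in WT. In kFRA it had 60.4, 77.9 and 47.9, so that replicate 2 lay within the DH-LMP2A range and replicates 1 and 3 below it. Iglv2 and Iglv3 together had 51.1, 47.7 and 31.7 counts per 100 Iglc2 counts in DH-LMP2A, 15.3, 29.3 and 26.7 in kFRA and 73.5, 45.7 and 66.4 in WT. By this measure the kFRA libraries were the lowest, by a narrow margin from DH-LMP2A (29.3 against 31.7), while DH-LMP2A and WT overlapped. Counts per gene do not show which variable segment was joined to which constant region, so the grouping by cluster is an assumption. The similar copies Iglv1 and Iglv2, and Iglc2 and Iglc3, fall in different clusters, which adds to the uncertainty. kFRA replicates 1 and 3 also had the highest Igkc of all libraries (431979 and 472266 CPM), and whether this bears on the ratio was not tested.

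**Figure D5:**
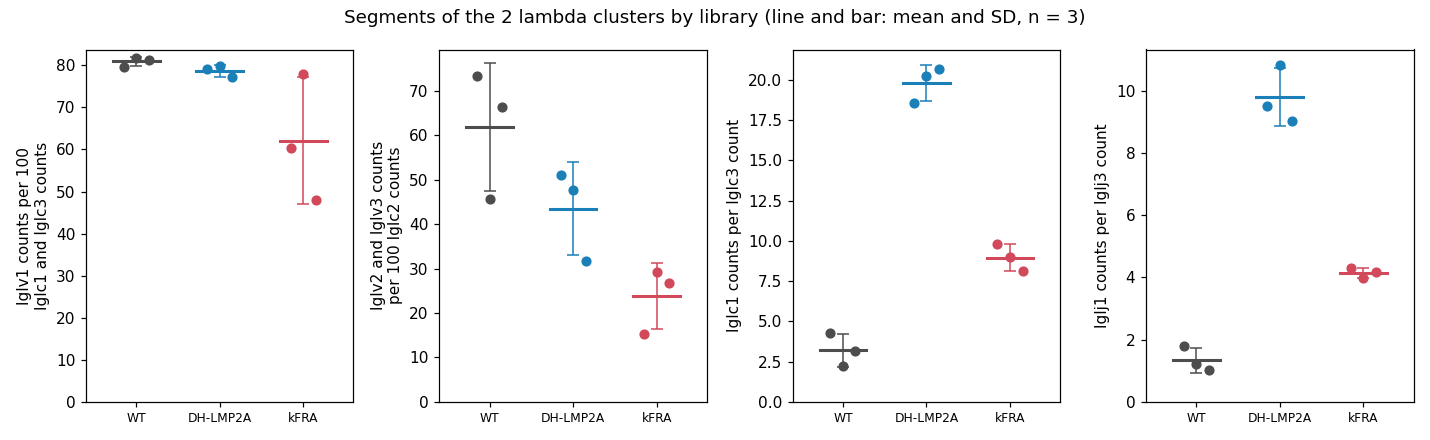
Counts of Iglv1 per 100 of Iglc1 and Iglc3, of Iglv2 and Iglv3 per 100 of Iglc2, of Iglc1 per Iglc3 and of Iglj1 per Iglj3 in each library, with the mean and SD of 3. The last 2 panels order the genotypes as DH-LMP2A, kFRA and WT (9.79, 4.15 and 1.34 Iglj1 counts per Iglj3 count), while the first shows 2 kFRA libraries below the others.

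Compared per length, as CPM per kilobase of the table's gene length, Iglc1 and Iglv1 led in every genotype. Iglc1 was at 47461 ± 4567 and Iglv1 at 45509 ± 3525 CPM per kilobase in DH-LMP2A, at 24094 ± 7243 and 18398 ± 2565 in kFRA and at 5965 ± 710.2 and 7530 ± 1561 in WT (SD, n = 3 each). Their ranges overlapped in each genotype. In DH-LMP2A they were followed by Iglc3 at 2408, Iglc2 at 1481, Iglv2 at 629.97, Iglv3 at 387.2 and Iglc4 at 15.1 CPM per kilobase, with no overlap between neighbours. The separation of Iglc3 from Iglc2 depended on the Iglc2 length of 612 bases, which includes the exon of 154 bases over Iglj2. Before division by length they overlapped in DH-LMP2A (973.9 to 1151 CPM for Iglc3, 751.3 to 1182 CPM for Iglc2). In kFRA the order was the same, and Iglc3 and Iglc2 overlapped. In WT Iglc2 (2802), Iglc3 (2048), Iglv2 (1966) and Iglv3 (992.9) each overlapped with the next, so their order was not resolved. Iglc4 was the lowest in each genotype.

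Among the other genes of the lambda locus and its relatives, 4 of 9 were tested. Iglj1 passed in the 3 comparisons, higher than in WT in DH-LMP2A by a log2 fold change of 3.08 ± 0.22 and in kFRA by 1.93 ± 0.21 (SE, adjusted p from edgeR 2.85e-05 and 0.000347). Between kFRA and DH-LMP2A it differed by −1.15 ± 0.21 (adjusted p from edgeR 0.0132). Vpreb3, named as a relative of the surrogate light-chain genes Vpreb1 and Vpreb2, was lower in kFRA than in DH-LMP2A (−1.25, SE 0.26, edgeR adjusted p = 0.0257) and did not pass against WT. Iglj3 and Iglj3p passed in none of the 3. The 5 genes that were not tested were Iglj2, Iglj4, Igll1, Vpreb1 and Vpreb2, with at most 6 counts in a library. For Iglj2 the overlap with Iglc2 described above limits what its count can show. Igll1, Vpreb1 and Vpreb2 encode the surrogate light chain of pre-B cells.

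Of 18 genes for light-chain recombination and for factors that bind light-chain enhancers, 15 were tested. Rag1, Rag2 and Dntt, which cut the gene segments and add bases at the joins, were too low to test. Over all tested genes 7.3% were called lower and 5.07% higher in DH-LMP2A relative to WT, 11.1% and 6.68% in kFRA relative to WT, and 3.3% and 1.73% in kFRA relative to DH-LMP2A. In DH-LMP2A against WT edgeR called 0 of the 15 higher (4 at an unadjusted p under 0.05, and 2 by DESeq2) and 3 lower, namely Irf8 (log2 fold change −1.30, SE 0.20), Spi1 (−0.97, SE 0.16) and Pou2f2 (−0.88, SE 0.19). In kFRA against WT edgeR called 0 higher (0 at an unadjusted p under 0.05, and 0 by DESeq2) and 4 lower, Spib (−3.01, SE 0.62), Irf8 (−1.07, SE 0.20), Spi1 (−0.95, SE 0.16) and Lig4 (−0.86, SE 0.23). Of the B cell markers, 5 of 8 were also lower in that comparison, among them Cd22 (−3.60) and Pax5 (−3.01), with 0 higher and 3 not called. The part of B cells in the Spib value was not tested. Spi1 encodes PU.1, which with Irf4 binds composite sites in lambda enhancers, and Spib and Irf8 are their respective relatives. Irf4, also a plasma cell factor, had log2 fold changes of 0.52 (SE 0.28) in DH-LMP2A and 0.43 (SE 0.28) in kFRA against WT, neither past the threshold (edgeR adjusted p = 0.286 and 0.296).

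In kFRA against DH-LMP2A edgeR called 0 of these genes higher (0 at an unadjusted p under 0.05, and 0 by DESeq2) and 2 lower, Mef2c (−0.89, SE 0.20, edgeR adjusted p = 0.0352) and Pou2af1 (−0.64, SE 0.15, edgeR adjusted p = 0.0461), a coactivator at immunoglobulin promoters. The medians of the list were 0.10, −0.32 and −0.42 for DH-LMP2A against WT, kFRA against WT and kFRA against DH-LMP2A. Spi1 and Irf8 are also transcribed in myeloid cells, whose 8 markers summed to 1824 to 3121 CPM in WT, 456.2 to 1433 CPM in DH-LMP2A and 759.0 to 1362 CPM in kFRA, and their part in these values was not tested.

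The genes whose levels followed the summed lambda constant regions most closely over the 9 libraries were sought among 9854 genes with a mean of at least 5 CPM. Outside the immunoglobulin loci these were Ppp3cc (Pearson r 0.978), Ift46 (0.978), Cd8b1 (0.975), Bmyc (0.972) and Atraid (0.970). Ppp3cc, a catalytic subunit of calcineurin, was at 115.2 to 126.2 CPM in DH-LMP2A, 89.9 to 96.6 CPM in kFRA and 65.7 to 72.2 CPM in WT. Cd8b1, a chain of the T cell coreceptor CD8, was at 29.5 to 49.4, 9.94 to 16.4 and 0.557 to 0.828 CPM in the same order. The other 7 T cell markers summed to 38.5 to 73.8 CPM in DH-LMP2A, 31.0 to 48.1 CPM in kFRA and 44.3 to 97.7 CPM in WT, which overlapped. Of these 7, edgeR called 0 in each comparison, also 0 at an unadjusted p under 0.05 and 0 by DESeq2. The shares of all tested genes called higher or lower were 1.73% to 11.1%, so a count of 0 of 7 carries little weight. The 9 points share their genotypes, so a gene that separates the 3 genotypes in this order ranks high whatever else it does. Of the immunoglobulin genes other than the lambda group, Iglj1 came first (0.994), followed by Vpreb3 (0.530) and Igkv20-101-2 (0.443).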

How the data were processed

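Polyadenylated RNA of 9 spleens was sequenced in read pairs with a kit that keeps the strand, per the labels' protocols. The deposited values are counts per gene as the authors obtained them, not normalized, in the layout of featureCounts per the file headers. The submitters' processing notes name STAR 2.4.0a, featureCounts, Subread 1.5.0-p3 and DESeq2 and the builds mm10 and GRCm38, but how strand and reads with several matches were handled is not given in the sources used here. The deposited table also gives each gene's length in bases, an other measure used only for values per kilobase. Replicates did not agree within sampling noise (chi-square per degree of freedom 17.3 to 164).

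The counts were tested with edgeR 4.0.16 (R 4.3.3): filterByExpr by genotype left 14199 genes, 7 of 7 lambda genes among them, with TMM scaling, 1 coefficient per genotype over all 9 libraries, quasi-likelihood F tests, and Benjamini-Hochberg adjustment over all tested genes at 0.05. The SE is the log2 fold change divided by the square root of F. This fit was first tested on simulated counts. DESeq2 1.42.0, other scalings, filters and thresholds, a replicate block and the omission of each library were tried as alternatives. Ratios and shares were taken within each library, and genotypes were set against each other by an exact permutation test, 2-sided (scipy 1.17.1). Transcript sequences of GENCODE M21 were compared with Biopython 1.88, and coding spans of constant regions are RefSeq's. The floor covers counting error alone, as the reads carry no molecular identifiers.

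All 7 lambda genes are named, with Igkc as reference and 2 lists of related genes. The members, lists and tests were chosen with earlier results of these data known. The replicate numbers in the titles name different mice, and the labels state no pairing. Same-numbered libraries deviated together, with a correlation above 0.1, in 4 of 9 pairs (−0.21 to 0.20). Differently numbered pairs ranged from −0.27 to 0.29, so this check cannot show whether same-numbered libraries belong together. They were not treated as pairs.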

Additional observations from a re-analysis of the deposited data

How the results depend on the processing

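Of 312 alternative values of the 21 lambda fold changes, 284 kept their side of the threshold, 282 of them with their direction, 17 lost and 11 gained a call, and none of the called values reversed. The sign turned in 2, both for Iglc3 in kFRA against DH-LMP2A, which was never called (−0.0055 with library size alone and −0.077 without kFRA replicate 3). Over the fits that each omitted 1 replicate, kFRA against DH-LMP2A had 0 to 1 lambda genes called (1 with the full set), kFRA against WT 3 to 5 (4) and DH-LMP2A against WT 2 to 3 (3). For all genes those ranges were 352 to 3299 (713), 1271 to 5632 (2523) and 932 to 1408 (1756), with 3299 and 5632 reached without kFRA replicate 2, where 697 of the 713 and 2427 of the 2523 genes remained. For kFRA against DH-LMP2A, 2 lambda genes passed with library size alone, with the DESeq2 Wald test and with only the 6 libraries compared, and 0 with an adjusted p under 0.01. The threshold of 0.01 left 2 lambda genes for kFRA against WT, and 306, 975 and 765 genes in all for the 3 comparisons in the order above. The DESeq2 Wald test called 5 lambda genes among 2549 genes in all for DH-LMP2A against WT. For kFRA it called 2 among 1329 against DH-LMP2A and 5 among 3505 against WT. When only genes with a mean of at least 5 CPM were tested, 1094 genes were called for DH-LMP2A against WT, 3 lambda genes among them. With only the 6 libraries compared Iglv2 in DH-LMP2A against WT lost its call (edgeR adjusted p = 0.058) and Iglv3 in kFRA against DH-LMP2A gained one (edgeR adjusted p = 0.0241). Library size alone moved the median log2 fold change of all genes to −0.14, 0.17 and 0.33.

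The log2 lambda-to-kappa difference of kFRA against DH-LMP2A (−2.35) was −2.52 with all lambda over Igkc and with Iglc1 alone, −1.63 with Iglc over all kappa and −1.80 with all lambda over all kappa. That of kFRA against WT (−0.25) reversed to 0.50 with Iglc over all kappa, 0.34 with all lambda over all kappa and 0.45 with Iglc1 alone. That of DH-LMP2A against WT (2.10) was 2.96 with Iglc1 alone. Per kilobase, the Iglc1 share differed by −8.83 percentage points for kFRA against DH-LMP2A and by 37.3 for DH-LMP2A against WT, and the variable-to-constant difference of DH-LMP2A against WT reversed to −0.10. With kappa segments added, the kFRA libraries gain almost no counts and the others many, which by construction lowers the ratio in the others; for the rest the cause was not tested.

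The labels do not say that the numbers in the titles pair the mice. With the replicate block 1, 4 and 4 lambda genes and 685, 2930 and 2067 genes in all were called, and Iglc2 in DH-LMP2A against WT gained a call (edgeR adjusted p = 0.0342). Each lambda gene lay far above the floor of 3 counts. With similar copies summed 1, 4 and 3 lambda genes were called, as without.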
